A study of Mus musculus with 8 samples.

Results

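The 10 genes described here encode beta-catenin (Ctnnb1), the proteins that mark it for destruction (Apc, Gsk3a, Gsk3b, Csnk1a1, Btrc), an inhibitor that binds it (Ctnnbip1) and its nuclear coactivators (Bcl9, Bcl9l, Pygo2). They were chosen by symbol, and all 10 were found among the 21757 mouse genes of a genotype experiment and, as human symbols, among the 60237 human genes of a knockdown experiment. The genotype experiment set 2 libraries of Ctnnb1-ex3 intestinal organoids against 2 libraries of wild-type (WT) organoids. The knockdown experiment set 2 libraries that carried a hairpin RNA targeting Prmt1 (sh-Prmt1) against 2 libraries carrying a scrambled hairpin (sh-scramble). Per the labels, all organoids were of mouse small intestine. WT organoids were grown with Wnt3a, R-spondin1, Noggin and EGF, and Ctnnb1-ex3 organoids with Noggin and EGF alone, so genotype and medium cannot be told apart. The labels do not say how the Ctnnb1-ex3 organoids were made or from how many animals, which cells received the hairpins, or whether replicates were separate cultures. The p-values therefore reflect only the library-to-library spread, part or all of which may be technical. The knockdown tables held human gene identifiers under labels that name mouse, so the cells behind them are not established, and the 2 experiments are described side by side under their own symbols.

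In cells without a Wnt signal, beta-catenin is held by a scaffold of Apc and Axin, phosphorylated first by casein kinase 1 alpha (Csnk1a1) and then by glycogen synthase kinase 3 (Gsk3a and Gsk3b), and recognised by the beta-TrCP ubiquitin ligase (Btrc), which sends it to the proteasome. A Wnt signal stops this cycle, and beta-catenin then enters the nucleus, where it joins TCF factors with Bcl9 or Bcl9l and the Pygo proteins and activates target genes. In the intestinal crypt this pathway maintains stem cells. Most of its control acts on protein, which these RNA measurements do not show.

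Alleles called Ctnnb1-ex3 are usually ones in which exon 3 of Ctnnb1 is missing. That exon is shown because it encodes the sites through which the kinases and the ubiquitin ligase above act. In the GENCODE M21 transcript Ctnnb1-201 it is exon 3 of 15, at chr9:120950522-120950749 on the plus strand of GRCm38 (mm10). It spans 228 bases, which divides evenly by 3, so that its loss keeps the reading frame. Capitals mark codons 33, 37, 41 and 45, counted from the start codon, the last of them the casein kinase site and the other 3 the glycogen synthase kinase sites.
Ctnnb1 exon 3: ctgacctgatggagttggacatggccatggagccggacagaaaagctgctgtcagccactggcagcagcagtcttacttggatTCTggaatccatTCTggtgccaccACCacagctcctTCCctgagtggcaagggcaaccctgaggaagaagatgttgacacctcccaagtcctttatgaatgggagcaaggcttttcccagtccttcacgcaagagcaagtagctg
The deposited counts are summed over the whole gene, so they do not show whether this exon was present in any library.

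The libraries held between 2951887 and 6015933 counts in the genotype experiment and between 39608007 and 53193113 estimated counts in the knockdown experiment. A level of 3 counts, the limit that a count of 0 allows, stood at 0.451 to 1.14 CPM (counts relative to library size, scaled between libraries by TMM) and 0.0528 to 0.0809 CPM, and it covers counting error only. The 100 most abundant genes took 4.401% to 6.10% of counts in the genotype libraries and 26.8% to 30.5% in the knockdown libraries. All 8 epithelial markers (Epcam, Vil1, Cdx1, Cdx2, Krt8, Krt18, Krt20 and Lgr5) were present in every library, with at least 180 counts in Ctnnb1-ex3, 41 in WT, 857 in sh-Prmt1 and 1104 in sh-scramble. Some of their levels moved in the genotype comparison. Krt20, a keratin of differentiated cells, stood at 52 and 46.2 CPM in Ctnnb1-ex3, against 283 and 324 CPM in WT. It fell by 2.62 on the log2 scale (edgeR adjusted p = 6.44e-05). Vil1, a brush border gene, fell by 0.75 (edgeR adjusted p = 0.0119), and Lgr5 rose by 4.07. Epcam (-0.53), Krt8 (-0.59), Cdx1 (-0.36), Cdx2 (0.04) and Krt18 (0.003) were not called (edgeR adjusted p = 0.101 to 0.993). In the knockdown EPCAM (0.41) and CDX1 (0.45) rose, LGR5 fell by 0.68, and KRT20 stood at 0.04 (edgeR adjusted p = 0.739). VIL1 (0.15), KRT8 (0.18), KRT18 (0.27) and CDX2 (-0.08) were not called either (edgeR adjusted p = 0.0530 to 0.547). The 7 stromal and endothelial markers summed to 6.31 and 5.91 CPM in Ctnnb1-ex3, against 5.07 and 6.09 CPM in WT, and to 1.47 and 1.004 CPM in sh-Prmt1, against 0.566 and 0.495 CPM in sh-scramble. Of the 7 immune and blood markers, 6 were listed in the mouse table. They summed to 6.31 and 61.7 CPM in Ctnnb1-ex3, against 76.7 and 3.804 CPM in WT, with 110 counts of Gzma in Ctnnb1-ex3 replicate 2 and 323 counts of Lyz2 in WT replicate 1. Ctnnb1-ex3 replicate 2 also had 25 counts of Ptprc, 14 of Cd3e and 13 of Cd3g, against 4, 1 and 1 in WT replicate 1. The part of these epithelial and immune shifts in the results was not tested. In the knockdown experiment the same markers summed to 2.22 and 1.74 CPM in sh-Prmt1, against 0.728 and 0.967 CPM in sh-scramble.

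Per unit of length, Ctnnb1 was the most abundant of the 10 genes in every library. In the genotype experiment, CPM was divided by the length of all annotated exons of a gene. On this scale Ctnnb1 had 41.9 and 55.6 CPM per kilobase in Ctnnb1-ex3, against 65.5 and 81.4 in WT, and Gsk3b came second in all 4 libraries with 32.5 and 33.7 in Ctnnb1-ex3, against 40.4 and 47.1 in WT. Csnk1a1 and Ctnnbip1 held the next places and changed order between libraries of the same group. Pygo2, Apc, Gsk3a and Bcl9 followed in this order in every library. Btrc and Bcl9l were lowest. Bcl9l stood above Btrc in both Ctnnb1-ex3 libraries, with 3.93 and 3.57 against 1.58 and 1.72 CPM per kilobase, and below it in both WT libraries, with 0.979 and 0.904 against 1.99 and 1.06. This order depends on the length used, since all annotated exons span 16908 bases for Btrc and 7998 bases for Bcl9l. The lengths of the transcripts present were not measured. In CPM alone, Bcl9l had 31.4 and 28.5 in Ctnnb1-ex3, against 26.8 and 29.0 for Btrc. In the knockdown libraries the order by TPM (transcript abundance, which divides by length) also began with CTNNB1, and BCL9L was last in all 4.

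The comparison of Ctnnb1-ex3 with WT organoids asked which transcripts differ with this genotype. Among the 10 genes, both members of the Bcl9 pair were called higher in Ctnnb1-ex3, Bcl9l by 3.96-fold and Bcl9 by 1.58-fold. The call for Bcl9 was less firm and held under 7 of 12 alternative settings. The other 8 genes did not pass the test. A gene was called when the adjusted p of edgeR's two-sided quasi-likelihood test was under 0.05. All 10 genes were tested, and 2 of 10 called compares with 40.8% of the 12976 genes tested (20.3% higher and 20.5% lower). The groups did not overlap in scaled level for 5 of the 10, with Ctnnb1-ex3 higher for 3 (Gsk3a, Bcl9 and Bcl9l) and lower for 2 (Ctnnb1 and Gsk3b), against 38.1% and 35.6% of all genes tested. The median log2 fold change of the 10 was -0.10, against 0.02 over all genes tested. Under TMM scaling, folds are relative to the bulk of genes. With upper-quartile factors in its place the median of all genes moved by 0.24 and 68.0% of calls were higher, against 49.8% with TMM. In these bulk samples fewer cells of a type and less RNA per cell cannot be told apart.

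Bcl9l (chromosome 9, 44482825 to 44511896, plus strand), an adaptor that links beta-catenin to Pygo proteins, had 209 and 111 counts in Ctnnb1-ex3, against 34 and 19 in WT. Scaled, these were 31.4 and 28.5 CPM in Ctnnb1-ex3, against 7.83 and 7.23 CPM in WT. Both Ctnnb1-ex3 libraries lay far above both WT libraries, and the spread within each group was small. The log2 fold change was 1.98 ± 0.32 (SE; 95% interval 1.24 to 2.73; edgeR adjusted p = 0.00264, n = 2 libraries per group), and the gene was called under all 12 alternatives, with log2 fold changes of 1.5 to 2.22. In the authors' deposited table it had 1.99 with an adjusted p of 2.6e-05. The 500 tested genes nearest in level had a median of 0.54. Without their lowest and highest deciles they ran from -1.22 to 2.02, a range that includes Bcl9l. Exons of Bcl9l overlap the opposite-strand genes Gm47205 by 662 bases and Cxcr5 by 110 bases, and without strand information reads there cannot be assigned.

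Bcl9 (chromosome 3, 97203662 to 97297917, minus strand), its paralog with the same role, had 352 and 239 counts in Ctnnb1-ex3, against 139 and 107 in WT. Scaled, these were 52.9 and 61.4 CPM in Ctnnb1-ex3, against 32 and 40.7 CPM in WT, and the groups did not overlap. Its log2 fold change was 0.66 ± 0.21 (SE; 95% interval 0.18 to 1.14; edgeR adjusted p = 0.0351, n = 2). The call was lost without WT replicate 1 (0.46, adjusted p = 0.303), without WT replicate 2 (0.82, adjusted p = 0.0843), with DESeq2 (0.63, adjusted p = 0.0971), when low counts were left unfiltered (0.68, adjusted p = 0.0655) and with a scaling that follows the level of a gene (0.50, adjusted p = 0.103). The authors' deposited table gives Bcl9 0.65 with an adjusted p of 0.0759, which is above 0.05. A ratio of counts within a library needs no scaling between libraries. There were 0.594 and 0.464 counts of Bcl9l for each count of Bcl9 in Ctnnb1-ex3, against 0.245 and 0.178 in WT, so the pair shifted toward Bcl9l in both Ctnnb1-ex3 libraries.

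Pygo2 (chromosome 3, 89430214 to 89435128, plus strand), the chromatin reader that Bcl9 proteins bring to beta-catenin, had 64.6 and 51.6 CPM in Ctnnb1-ex3, against 63.1 and 57.4 CPM in WT. The groups overlapped, with a log2 fold change of -0.05 (95% interval -0.45 to 0.36; edgeR adjusted p = 0.844). Its paralog Pygo1 was under the filter on low counts.

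**Figure D1:**
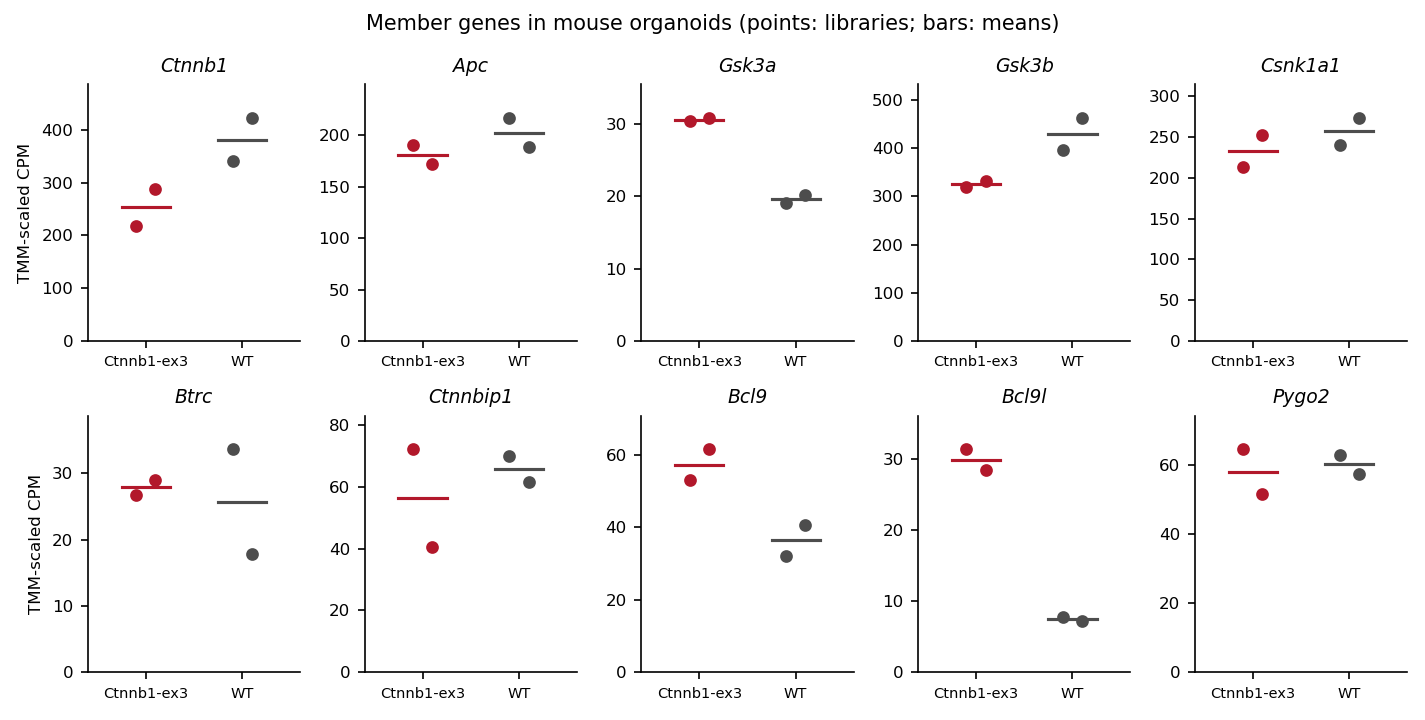
TMM-scaled CPM (y axis, from 0) of each of the 10 genes in the 2 Ctnnb1-ex3 libraries and the 2 WT libraries, one point per library with a bar at the mean. Bcl9l stands at 31.4 and 28.5 CPM in Ctnnb1-ex3, against 7.83 and 7.23 in WT, while Apc, Csnk1a1, Btrc, Ctnnbip1 and Pygo2 overlap between groups.

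Ctnnb1 (chromosome 9, 120929216 to 120960507, plus strand) had 1447 and 1124 counts in Ctnnb1-ex3, against 1478 and 1111 in WT. After scaling to library size these were 217 and 289 CPM in Ctnnb1-ex3, against 340 and 423 CPM in WT, with both Ctnnb1-ex3 libraries below both WT libraries. The gene stood at the edge of the test, with a log2 fold change of -0.59 ± 0.21 (SE; 95% interval -1.07 to -0.12; edgeR adjusted p = 0.0504, n = 2). It was called with DESeq2 (-0.62, adjusted p = 0.0141), with limma-voom (-0.59, adjusted p = 0.0494), when low counts were left unfiltered (-0.57, adjusted p = 0.008) and without Ctnnb1-ex3 replicate 2 (-0.81, edgeR adjusted p = 0.0129), and the authors' deposited table gives -0.60 with an adjusted p of 0.000666. With a scaling that follows the level of a gene it was -0.10 (limma adjusted p = 0.503). The 500 tested genes nearest to Ctnnb1 in average level had a median log2 fold change of -0.48. Relative to that median Ctnnb1 stood at -0.12. The part of level in its change was not tested. Exons of Ctnnb1 overlap those of the opposite-strand gene Ulk4 by 759 bases.

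The kinases did not pass the test, and the 2 isoforms of glycogen synthase kinase 3 pointed in opposite directions. Gsk3a (chromosome 7, 25228258 to 25237851, minus strand) had 202 and 120 counts in Ctnnb1-ex3, against 83 and 53 in WT, or 30.4 and 30.8 CPM against 19.1 and 20.2 CPM. Its groups did not overlap, and the log2 fold change was 0.64 (95% interval 0.03 to 1.25; edgeR adjusted p = 0.0870). It was called with upper-quartile factors (0.88, edgeR adjusted p = 0.0325). Its exons overlap the antisense gene 9130221H12Rik by 820 bases, so its counts are uncertain without strand. Gsk3b (chromosome 16, 38089001 to 38246084, plus strand) had 319 and 331 CPM in Ctnnb1-ex3, against 397 and 463 CPM in WT. These groups did not overlap either, with a log2 fold change of -0.40 (95% interval -0.80 to 0.00325; edgeR adjusted p = 0.101), and it was 0.15 with a scaling that follows the level of a gene. The authors' deposited table gives -0.40 with an adjusted p of 0.0415. Without any scaling, there were 0.0951 and 0.0931 counts of Gsk3a for each count of Gsk3b in Ctnnb1-ex3, against 0.0482 and 0.0436 in WT. The ratio is given without a p, since the exact permutation test of 2 against 2 libraries cannot go below 0.333. The 500 genes nearest to Gsk3a in level had a median log2 fold change of 0.42, and those nearest to Gsk3b had -0.47. The part of level in this ratio was not tested.

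Csnk1a1 (chromosome 18, 61555274 to 61590061, plus strand), the priming kinase, had 213 and 253 CPM in Ctnnb1-ex3, against 240 and 274 CPM in WT. The groups overlapped, and the log2 fold change of -0.14 (95% interval -0.53 to 0.25; edgeR adjusted p = 0.532) was 0.09 with upper-quartile factors and 0.29 with a scaling that follows the level of a gene. Apc (chromosome 18, 34220924 to 34322552, plus strand), the scaffold whose loss starts most colorectal tumours, had 190 and 172 CPM in Ctnnb1-ex3, against 217 and 188 CPM in WT. These also overlapped, with a log2 fold change of -0.16 (95% interval -0.52 to 0.20; edgeR adjusted p = 0.430), which was 0.08 with upper-quartile factors and 0.21 with the scaling that follows level. Within a library, there were 0.979 and 0.876 counts of Csnk1a1 for each count of Ctnnb1 in Ctnnb1-ex3, against 0.706 and 0.647 in WT.

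Btrc (chromosome 19, 45363734 to 45530013, plus strand), the substrate receptor of the ubiquitin ligase, had 26.8 and 29.0 CPM in Ctnnb1-ex3, against 33.6 and 17.9 CPM in WT. The WT libraries differed more from each other than the groups did, and the log2 fold change was 0.09 (95% interval -0.68 to 0.86; edgeR adjusted p = 0.847). Its direction turned without WT replicate 2 (-0.29) and with the scaling that follows level (-0.31). Ctnnbip1 (chromosome 4, 149518236 to 149566437, plus strand), a small protein also called ICAT that keeps beta-catenin from TCF factors, had 72.0 and 40.6 CPM in Ctnnb1-ex3, against 69.8 and 61.6 CPM in WT. The Ctnnb1-ex3 libraries lay on either side of WT. The log2 fold change was -0.21 with all libraries (95% interval -0.80 to 0.38; edgeR adjusted p = 0.539), -0.72 without Ctnnb1-ex3 replicate 1 (adjusted p = 0.000381), 0.12 without Ctnnb1-ex3 replicate 2 and 0.03 with upper-quartile factors. A fit with 1 library in a group takes its spread from the other group and assumes that the lone library varies alike, so its p says little. Opposite-strand exons overlap those of Ctnnbip1 by 720 bases (Gm13066) and those of Btrc by 235 bases (Gm6807).

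**Figure D2:**
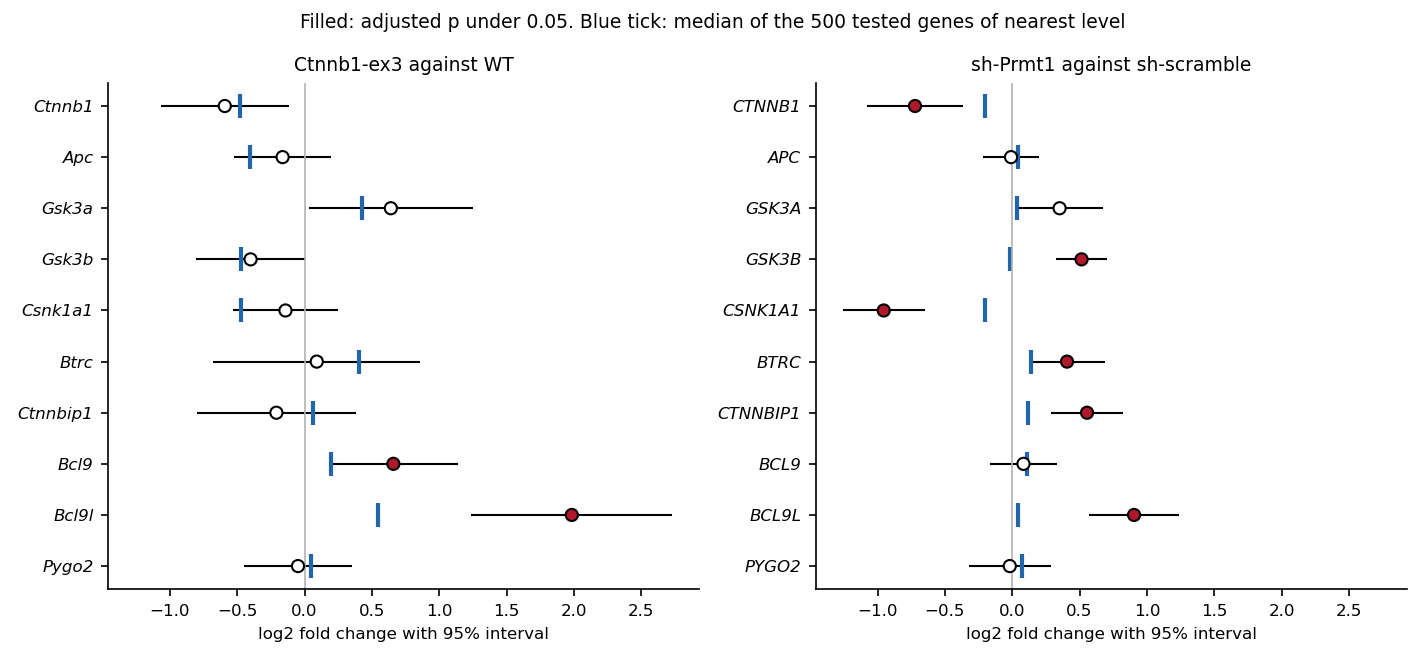
Log2 fold change (x axis) of the 10 genes with its 95% interval, for Ctnnb1-ex3 against WT on the left and sh-Prmt1 against sh-scramble on the right; filled points have an adjusted p under 0.05 and blue ticks are the median of the 500 tested genes nearest in level. Bcl9l at 1.98 lies above its tick at 0.54, and Ctnnb1 at -0.59 lies close to its tick at -0.48. Without their lowest and highest deciles, the genes nearest Bcl9l in level ran from -1.22 to 2.02, a range that includes Bcl9l. In the knockdown CSNK1A1 at -0.95 lies below its tick at -0.21, and the lowest decile of its nearest genes ended at -0.87.

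The wider machinery was described through 6 lists of 47 genes, of which 45 were tested in the genotype experiment. Of these, 13 rose and 3 fell in Ctnnb1-ex3, which is 35.6% called, near the 40.8% of all genes tested, with a median log2 fold change of 0.25 against 0.02 over all genes tested. Of 9 nuclear inhibitors and corepressors, 4 rose and 1 fell (median 0.63), and of 15 tested nuclear coactivators and enhanceosome genes, 6 rose and 1 fell (median 0.45). Of 8 tested partners of the destruction complex 3 rose (median 0.17), of 4 genes of the tankyrase arm 1 fell (median -0.05), and of 5 beta-TrCP ligase genes (median -0.25) and 4 adherens junction partners (median -0.32) 0 were called by edgeR in either direction. At an unadjusted p under 0.05 these were 1 ligase gene (Skp1a, lower) and 1 junction gene (Ctnna1, lower), and 0 with DESeq2 or limma-voom after adjustment.

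Among the partners of the destruction complex, the scaffold gene Axin2, itself a Wnt target, rose by 3.40 on the log2 scale. The casein kinase gene Csnk1e (1.46) and the Apc-binding gene Amer1 (1.14) also rose, and each of the 3 was called under all 12 alternatives. Rnf146, the ubiquitin ligase that removes tankyrase-modified Axin, fell by 0.66 and lost its call under 5 alternatives, among them without WT replicate 1 and without WT replicate 2. Among corepressors, Tle3 (0.95), Tle1 (0.63), the chromatin remodeller and beta-catenin inhibitor Chd8 (0.66) and the histone deacetylase Hdac1 (0.39) rose, and Tle4 fell by 0.82. Chd8, Tle1 and Hdac1 were not called without either WT library, nor Tle4 without WT replicate 2, and Hdac1 was also not called with DESeq2 size factors, DESeq2, limma-voom or no filter. Among coactivators, Ldb1 (1.25) and Ssbp3 (0.90), which belong to the enhanceosome that Bcl9 proteins join, the chromatin remodeller Smarca4 (1.08) and the ATPase gene Ruvbl1 (0.85) rose. The Paf complex genes Paf1 (0.46) and Ctr9 (0.45) rose as well and lost their calls without either WT library and with DESeq2, limma-voom or no filter, and Ctr9 also without Ctnnb1-ex3 replicate 1. The TCF-binding kinase gene Tnik fell by 1.07. The pathway's standard readout Lgr5, a receptor of crypt stem cells, stood at 225 and 230 CPM in Ctnnb1-ex3, against 11.97 and 15.6 CPM in WT. Prmt1, the target of the knockdown, had 51.2 and 32.4 CPM in Ctnnb1-ex3, against 10.1 and 11.4 CPM in WT, and rose 3.92-fold (log2 fold change 1.97, edgeR adjusted p = 0.00287, n = 2).

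The knockdown comparison asked which transcripts differ when PRMT1, the main enzyme of asymmetric arginine dimethylation, is reduced. PRMT1 itself had 2.99 and 3.35 CPM in sh-Prmt1, against 37.03 and 34.2 CPM in sh-scramble, 11.2-fold lower (log2 fold change -3.48, edgeR adjusted p = 1.06e-06, n = 2). Of the 10 genes, CTNNB1 and CSNK1A1 fell and GSK3B, BTRC, CTNNBIP1 and BCL9L rose, though the call for BTRC depended on how transcript length was treated. CTNNB1 (limma adjusted p = 0.118) and BCL9L (limma adjusted p = 0.0502) also did not pass on log2(TPM + 0.1). The 6 of 10 called compare with 40.9% of the 18452 genes tested (20.5% higher and 20.4% lower). Scaled levels did not overlap for 6 genes higher in sh-Prmt1 and 2 lower, against 36.7% and 34.4% of all genes tested. On log2(TPM + 0.1) the median of all genes moved by 0.12 and 64.7% of calls were higher, against 50.2% on counts. Their median log2 fold change was 0.22, against 0.03 over all genes tested. In the authors' deposited table all 10 were in the class NS. The name of that table states thresholds of 1.5 for the log2 fold change and 0.05 for p, and all 10 had a log2 fold change under 1.5 in size. Its adjusted p was under 0.05 for CSNK1A1 (-1.03, 1.02e-11), CTNNB1 (-0.71, 1.47e-05), BCL9L (0.81, 0.000743) and GSK3B (0.50, 0.00125). For the other genes it was 0.129 or more.

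CTNNB1 had 16025 and 15489 estimated counts in sh-Prmt1, against 17293 and 25471 in sh-scramble. Scaled, these were 374 and 273 CPM in sh-Prmt1, against 466 and 601 CPM in sh-scramble, and by TPM 79.1 and 53.8 against 81.7 and 109. Both sh-Prmt1 libraries were below both sh-scramble libraries, and replicates within each group differed widely. The log2 fold change was -0.72 ± 0.16 (SE; 95% interval -1.08 to -0.36; edgeR adjusted p = 0.00549, n = 2). Leaving out 1 library at a time gave -0.98 without sh-Prmt1 replicate 1, -0.53 without sh-Prmt1 replicate 2, -0.94 without sh-scramble replicate 1 and -0.54 without sh-scramble replicate 2, all called. On log2(TPM + 0.1) it was -0.53 and did not pass (limma adjusted p = 0.118). The 500 genes nearest to CTNNB1 in level had a median of -0.20. Their lowest decile ended at -0.87, so the change of CTNNB1 on counts lay within their range.

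CSNK1A1, the priming kinase, had a change close in size to that of BCL9L, and the order of these genes depended on the setting. It had 227 and 193 CPM in sh-Prmt1, against 352 and 462 CPM in sh-scramble, and by TPM 25 and 20.02 against 33.9 and 45.9. Its log2 fold change was -0.95 ± 0.14 (SE; 95% interval -1.26 to -0.65; edgeR adjusted p = 0.000433, n = 2), and it was called under all 13 alternatives, with values of -1.19 to -0.74. The related gene CSNK1A1L and the pseudogenes CSNK1A1P1 and CSNK1A1P3 had means of at most 0.02 TPM in either group in the authors' deposited table. The 500 genes nearest in level had a median of -0.21, and their lowest decile ended at -0.87. By TPM, there were 0.316 and 0.372 transcripts of CSNK1A1 for each of CTNNB1 in sh-Prmt1, against 0.415 and 0.422 in sh-scramble.

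The other kinase genes stood higher in sh-Prmt1. GSK3B had 45.4 and 43.4 CPM in sh-Prmt1, against 31.2 and 30.9 CPM in sh-scramble. Replicates were close and the groups far apart, with a log2 fold change of 0.51 ± 0.08 (SE; 95% interval 0.33 to 0.70; edgeR adjusted p = 0.001, n = 2), called under all 13 alternatives. GSK3A had 6.24 and 6.39 CPM in sh-Prmt1, against 5.04 and 4.86 CPM in sh-scramble. Its groups did not overlap, but the log2 fold change of 0.35 (95% interval 0.03 to 0.67) did not pass (edgeR adjusted p = 0.0776), and it passed on log2(TPM + 0.1) with 0.56 (limma adjusted p = 0.0216). By TPM, there were 0.361 and 0.451 transcripts of GSK3B for each of CTNNB1 in sh-Prmt1, against 0.202 and 0.134 in sh-scramble. The ratio of GSK3A to GSK3B overlapped, at 0.114 and 0.135 in sh-Prmt1, against 0.131 and 0.151 in sh-scramble.

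APC had 21.7 and 22.7 CPM in sh-Prmt1, against 23.0 and 21.7 CPM in sh-scramble. The groups overlapped, with a log2 fold change of -0.01 (95% interval -0.22 to 0.20; edgeR adjusted p = 0.951). By TPM the 4 libraries were further apart, at 1.97 and 3.48 in sh-Prmt1, against 2.13 and 1.46 in sh-scramble, and with each gene's effective length in the offset the log2 fold change was 0.45 (edgeR adjusted p = 0.318). The estimated mean transcript length of APC ran from 3443 bases in sh-Prmt1 replicate 2 to 7156 bases in sh-scramble replicate 2.

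BTRC showed the dependence on length most clearly. It had 9.996 and 10.6 CPM in sh-Prmt1, against 7.85 and 7.71 CPM in sh-scramble, with a log2 fold change of 0.41 ± 0.13 (SE; edgeR adjusted p = 0.0269, n = 2). By TPM the groups overlapped, at 2.16 and 1.33 in sh-Prmt1, against 1.93 and 1.496 in sh-scramble. Its mean transcript length was estimated at 2957 and 4668 bases in sh-Prmt1, against 2199 and 2880 in sh-scramble. With the effective-length offset the log2 fold change turned to -0.16 (edgeR adjusted p = 0.646), on log2(TPM + 0.1) it was -0.01, and the authors' deposited table gives -0.17 with an adjusted p of 0.480. The call on counts was also lost when any of the 4 libraries was left out (0.35 to 0.44, adjusted p = 0.0566 to 0.126).

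CTNNBIP1 had 15.1 and 13.8 CPM in sh-Prmt1, against 10.2 and 9.46 CPM in sh-scramble. The groups did not overlap, and the log2 fold change was 0.56 ± 0.12 (SE; 95% interval 0.29 to 0.82; edgeR adjusted p = 0.00465, n = 2). It stayed called with the effective-length offset (0.41, edgeR adjusted p = 0.0398), while the authors' deposited table gives 0.30 with an adjusted p of 0.129. Its mean transcript length was 1538 and 1535 bases in sh-Prmt1, against 1381 and 1406 in sh-scramble. For each CTNNB1 transcript by TPM there were 0.155 and 0.198 of this inhibitor in sh-Prmt1, against 0.0962 and 0.0693 in sh-scramble. Mean transcript lengths of BTRC and CTNNBIP1 were longer in sh-Prmt1 with no overlap, as were 18.5% of the genes tested, and those of CTNNB1 and PYGO2 were shorter with no overlap, as were 15.3%.

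**Figure D3:**
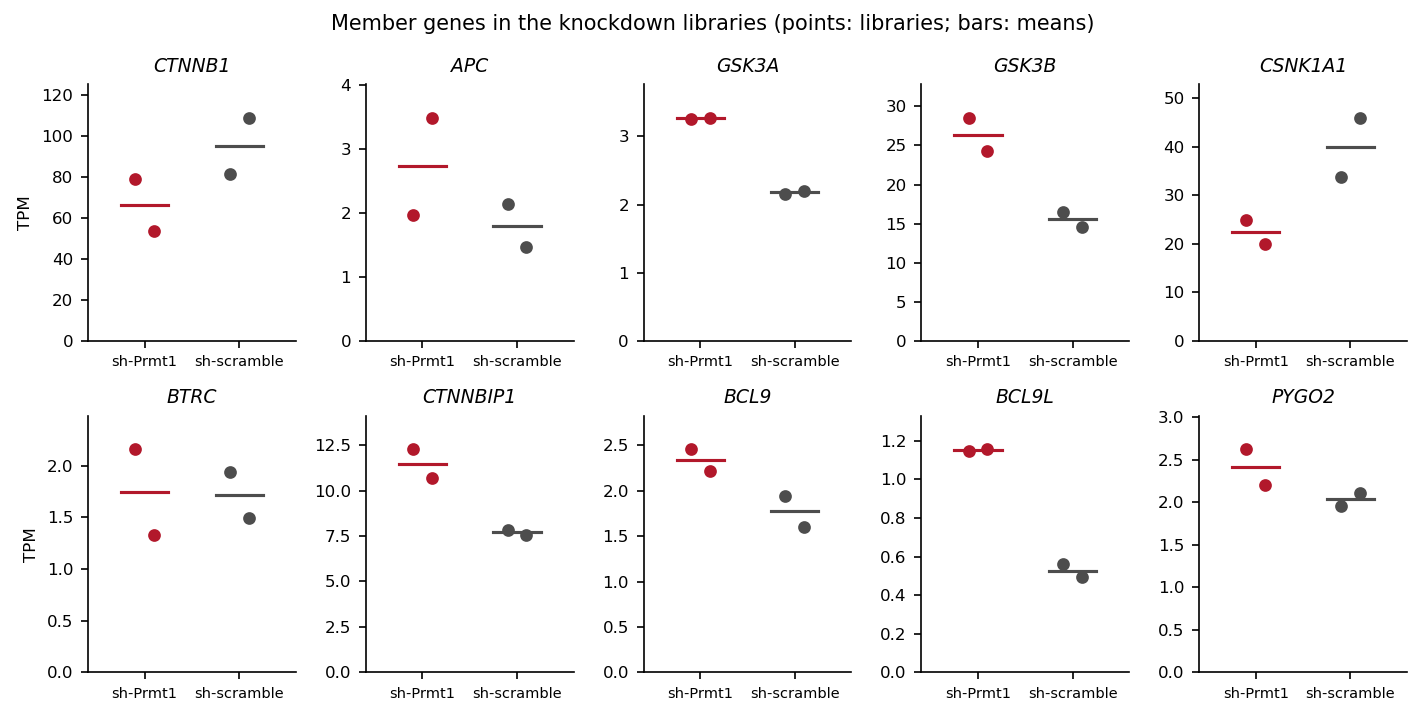
TPM (y axis, from 0) of the 10 genes in the 2 sh-Prmt1 libraries and the 2 sh-scramble libraries, one point per library with a bar at the mean. CSNK1A1 stands at 25 and 20.02 TPM in sh-Prmt1, against 33.9 and 45.9 in sh-scramble, GSK3B shows the opposite order, and BTRC and APC overlap.

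BCL9L rose in the knockdown as well. It had 387 and 540 estimated counts in sh-Prmt1, against 202 and 190 in sh-scramble, or 9.04 and 9.51 CPM against 5.45 and 4.48 CPM. The groups did not overlap, and the mean transcript length was 10005 bases in all 4 libraries. The log2 fold change was 0.90 ± 0.15 (SE; 95% interval 0.57 to 1.24; edgeR adjusted p = 0.00103, n = 2), and 0.81 with an adjusted p of 0.000743 in the authors' deposited table. At its low level the pseudocount of 0.1 TPM weighs on the log2(TPM + 0.1) value, which was 1.0 (limma adjusted p = 0.0502). BCL9 had 13.5 and 14.3 CPM in sh-Prmt1, against 13.5 and 12.8 CPM in sh-scramble, with the nearest libraries almost level, and a log2 fold change of 0.08 (95% interval -0.17 to 0.33; edgeR adjusted p = 0.591). By TPM there were 0.468 and 0.522 transcripts of BCL9L for each of BCL9 in sh-Prmt1, against 0.289 and 0.306 in sh-scramble. PYGO2 had 7.82 and 6.97 CPM in sh-Prmt1, against 7.42 and 7.55 CPM in sh-scramble, and these overlapped (log2 fold change -0.02, 95% interval -0.32 to 0.29; edgeR adjusted p = 0.931).

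**Figure D4:**
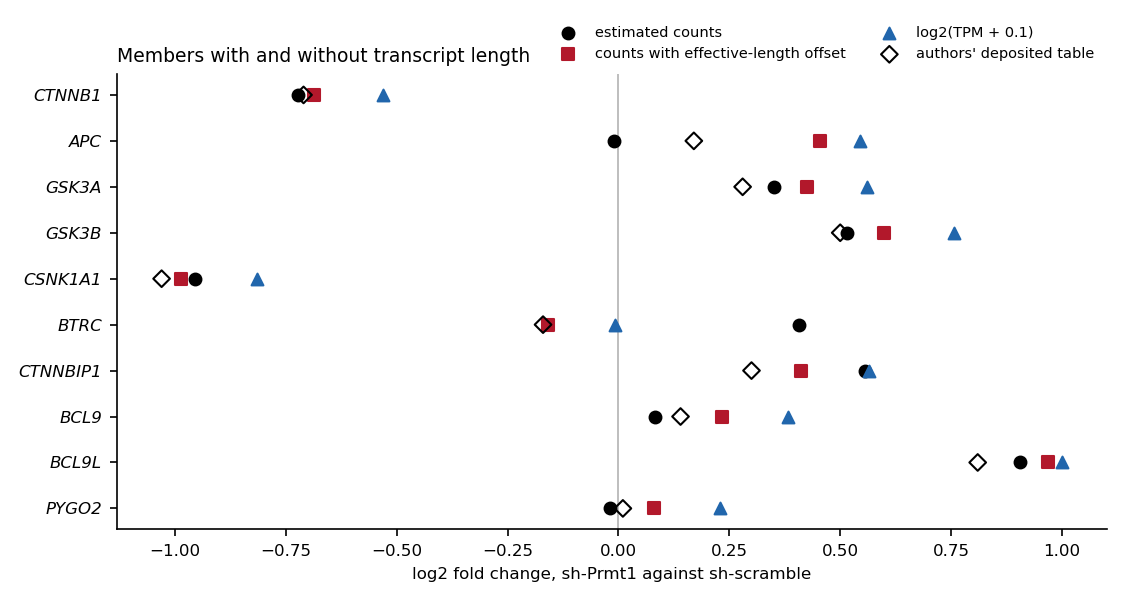
Log2 fold change of sh-Prmt1 against sh-scramble (x axis) for the 10 genes, from estimated counts, from counts with an effective-length offset, from log2(TPM + 0.1) and as the authors' deposited table gives it. BTRC moves from 0.41 on counts to -0.16 with the offset, APC from -0.01 to 0.45 and PYGO2 from -0.02 to 0.08. CSNK1A1, CTNNB1, GSK3A, GSK3B, CTNNBIP1, BCL9 and BCL9L keep their side of 0 in all 4.

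Of the 6 lists, 46 of 47 genes were tested in the knockdown, and 13 rose and 5 fell, which is 39.1% called, near the 40.9% of all genes tested, with a median of 0.14 against 0.03 over all genes tested. The ubiquitin ligase around BTRC was split. Its RING subunit gene RBX1 fell by 0.95 on the log2 scale and its adaptor gene SKP1 fell by 0.54, while the cullin gene CUL1 (0.32) and the cullin modifier gene NEDD8 (0.32) rose. The call for CUL1 was lost without sh-Prmt1 replicate 1 or without either sh-scramble library, that for NEDD8 without either sh-Prmt1 library or without sh-scramble replicate 2, and that for SKP1 with a scaling that follows level and on log2(TPM + 0.1). Of 8 tested partners of the destruction complex 3 rose, namely the phosphatase subunit genes PPP2R5A (0.70) and PPP2R1A (0.59) and, less firmly, CSNK1E (0.29, lost under 6 of 13 alternatives, among them the loss of any 1 library). Of the 4 tankyrase genes 0 were called by edgeR, and 0 by DESeq2, by limma-voom or at an unadjusted p under 0.05.

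On the nuclear side, 4 of 9 inhibitors and corepressors rose, TLE1 (1.05), TLE3 (0.63), CHD8 (0.34) and HDAC1 (0.25), and the corepressor gene CTBP2 fell by 0.27. The calls for CHD8, HDAC1 and CTBP2 were lost under 6, 7 and 6 of 13 alternatives, that for HDAC1 without any 1 library, that for CHD8 without sh-Prmt1 replicate 2 or either sh-scramble library, and that for CTBP2 without either sh-Prmt1 library or sh-scramble replicate 2. Of 16 coactivator genes, TBL1X (0.69), the acetyltransferase gene CREBBP (0.68) and SSBP3 (0.46) rose and TNIK fell by 0.65, a call that was lost with the effective-length offset and on log2(TPM + 0.1). SSBP3 was not called without sh-Prmt1 replicate 1 or sh-scramble replicate 2. At the adherens junction, where beta-catenin binds cadherin, the beta-catenin relative JUP, also called plakoglobin, rose by 1.06, and the alpha-catenin gene CTNNA1, which ties beta-catenin to actin, fell by 0.56. Both were called under all 13 alternatives. The cadherin gene CDH1 stood at -0.21, short of the threshold (edgeR adjusted p = 0.0652). The Wnt target AXIN2 had 43.5 and 42.7 CPM in sh-Prmt1, against 45.01 and 47.5 CPM in sh-scramble, a log2 fold change of -0.10 that did not pass (edgeR adjusted p = 0.360). LGR5 fell to 20.02 and 20.6 CPM in sh-Prmt1, against 29.8 and 35.3 CPM in sh-scramble (log2 fold change -0.68, edgeR adjusted p = 0.000709, n = 2).

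**Figure D5:**
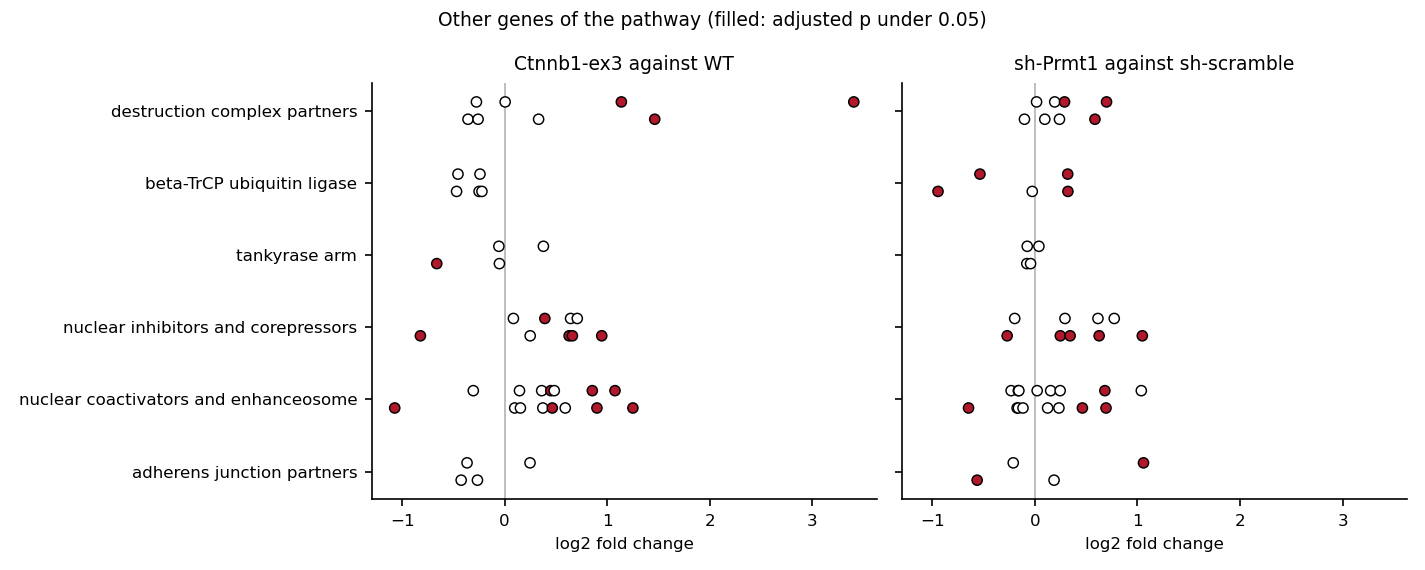
Log2 fold change (x axis) of every tested gene of the 6 lists (rows), for Ctnnb1-ex3 against WT on the left and sh-Prmt1 against sh-scramble on the right, with filled points at an adjusted p under 0.05. Axin2 at 3.40 is the point furthest to the right in the genotype panel, and in the knockdown panel RBX1 at -0.95 and JUP at 1.06 lie at the ends.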

How the data were processed

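For the genotype experiment the authors deposited whole-number counts per mouse gene symbol. No deposited count is below 1 and 861 genes stand at 1 in all 4 libraries; the main values keep the counts unchanged, and 1 was subtracted in an alternative. For the knockdown, per the file headers, the authors deposited Salmon-type gene tables with estimated counts, TPM, and mean and effective transcript lengths in bases, all for human Ensembl genes, of which 60236 of 60237 have a symbol in the authors' deposited comparison. The authors' deposited comparisons hold adjusted p-values with log2 fold changes, plus group means of TPM in the knockdown. The submitters' processing notes name Salmon, DESeq2 and mm10 without roles or versions; no other upstream step is given in the sources used here. Per the labels, libraries came from a custom Smart-seq2 procedure, whose standard form keeps no strand.

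The experiments were fitted separately in R 4.3.3 by edgeR 4.0.16 (TMM, filterByExpr, quasi-likelihood test, Benjamini-Hochberg adjustment over all genes tested, called at 0.05). Estimated counts were rounded for the fit. The SE of a log2 fold change is its size divided by the square root of F. Alternatives used DESeq2 1.42.0, limma 3.58.1, other scalings (cyclic loess is the scaling that follows level), no filter, an effective-length offset, log2(TPM + 0.1) and leaving out each library. The scripts were tested on simulated data. The 10 genes and the lists were chosen with earlier results of these data known. All 10 genes are described, and of the lists every called gene is named, with Prmt1, Axin2 and Lgr5 as checks. Within every group the libraries differed beyond counting noise (chi-square divided by its degrees of freedom: 10.4 in Ctnnb1-ex3, 3.75 in WT, 17.6 in sh-Prmt1 and 29.9 in sh-scramble). Exon sequence and gene positions are from GENCODE M21.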

Additional observations from a re-analysis of the deposited data

How the results depend on the processing

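Over single genes, 285 of the genotype values kept their direction and side of the threshold, 32 lost a call, 8 gained one and 11 turned direction, and in the knockdown these were 344, 47, 1 and 11. The genotype values that turned, with the far end of the range where leaving out a library turned one, were Apc (0.0752 with upper-quartile factors, 0.21 with cyclic loess), Gsk3b (0.15 with cyclic loess), Csnk1a1 (0.0945 and 0.293 with these 2), Btrc (-0.31 with cyclic loess, -0.29 without WT replicate 2 and 0.61 without WT replicate 1), Ctnnbip1 (0.0326 with upper-quartile factors, -0.716 and 0.12 when either Ctnnb1-ex3 library was left out) and Pygo2 (0.19 with upper-quartile factors, 0.0938 without Ctnnb1-ex3 replicate 2, -0.243 without Ctnnb1-ex3 replicate 1). Given in the same way, the knockdown values that turned were APC (0.0053 with upper-quartile factors, 0.45 with the effective-length offset, 0.54 on log2(TPM + 0.1), 0.011 without sh-Prmt1 replicate 1, -0.0649 without sh-scramble replicate 2), BTRC (-0.16 with the offset, -0.0067 on log2(TPM + 0.1)), PYGO2 (0.0804 with the offset, 0.23 on log2(TPM + 0.1), 0.0489 without sh-Prmt1 replicate 2, -0.114 without sh-Prmt1 replicate 1), AXIN2 (0.0539 on log2(TPM + 0.1)) and CTBP2 (0.0781 on log2(TPM + 0.1)). The cause was not tested.

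In the genotype experiment the count of the 10 genes called was 1 with cyclic loess and 1 to 3 when a library was left out, the count of list genes called was 9 to 22 when a library was left out, and over all genes it was 7757 when Ctnnb1-ex3 replicate 2 was left out, 2960 when WT replicate 1 was and 2634 when WT replicate 2 was. In the knockdown the total counts of calls stayed within 1.5 times under the alternatives run, but genes called lower numbered 1900 on log2(TPM + 0.1), where fewer genes were tested, against 3765 on counts. With no filter on low counts the knockdown median moved by 0.28. The replicate numbers are not shown to pair the libraries, whose deviations correlated at 0.0706 (genotype) and -0.0515 (knockdown). With a replicate block, 4 of the 10 genes and 25 list genes were called in the genotype experiment, the 4 including Ctnnb1 (-0.60, edgeR adjusted p = 0.00048) and Gsk3b (-0.40, edgeR adjusted p = 0.00427). Depth limits Bcl9l in WT, at 34 and 19 counts.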

Other observations

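Of the 47 list genes, 44 were tested in both experiments by matched symbol, which compares mouse and human genes. Called in both in the same direction were 7, with Csnk1e, Chd8, Tle1, Tle3, Hdac1 and Ssbp3 higher and Tnik lower. These are 43.8% of the genotype calls and 41.2% of the knockdown calls among them, against 25.1% and 19.8% over all matched genes. Of the 7, only Tle3 was called under every alternative in both experiments. Over all 9552 matched genes, 3949 were called in the genotype experiment, 5009 in the knockdown and 2078 in both, with 435 higher in both, 556 lower in both and 1087 in opposite directions. Among the 10 genes, Bcl9l rose in both experiments. The overlap was not tested, and the 10 genes and the lists were chosen with earlier results of these data known.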
